A study of Mus musculus with 23 samples.

Results

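Glutathione synthesis and cystine import were followed through 10 genes of 56941 listed in the count tables: Gclc, Gclm, Gss, Gsr, Slc7a11, Slc3a2, Gpx1, Gpx3, Gpx4 and Ggt7. The genes were picked by name, as enzymes and carriers of glutathione supply, recycling and use, and the set was chosen with the CRE and RFP values of these libraries known, so the comparison of those groups is given for them as a description. All 10 passed the filter on low counts and were among the 14482 genes tested. The RNA came from primary hippocampal neurons of homozygous NEDD8cKO mice of postnatal day 0, in which the Nedd8 gene can be removed by the CRE recombinase. The neurons of both groups carried these alleles and were infected on day 1 in vitro with a lentivirus, driven by the neuronal Synapsin1 promoter, that encoded RFP alone (RFP, 11 libraries) or RFP with CRE (CRE, 12 libraries). The labels give 12 days in culture before RNA extraction and Methods gives 1 day more. Each dish pooled 2 hippocampi, and bulk RNA of the whole dish was sequenced, including any cell that was not a neuron. Titles number the libraries as 3 cultures of up to 4 libraries per group, written here as CRE1-1 to RFP3-4, and nothing says that libraries of 1 culture came from separate animals. The number of animals or replicate cultures in the legends is also 3, so each n of 10 or 11 counts libraries and not animals, and the p-values measure the spread between libraries, which may be technical.

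Glutathione is a tripeptide of glutamate, cysteine and glycine and the main low-molecular-weight thiol of the cytosol. Glutamate-cysteine ligase, made of the catalytic subunit Gclc and the modifier subunit Gclm, joins glutamate and cysteine in the rate-limiting step, and glutathione synthetase (Gss) adds glycine. Cysteine enters many cells as cystine through the exchanger xCT (Slc7a11), which needs the heavy chain Slc3a2 to reach the membrane. Glutathione peroxidases spend glutathione on peroxides, glutathione reductase (Gsr) regenerates it with NADPH, and gamma-glutamyl transferases open its breakdown. In the brain, astrocytes carry most of the cystine uptake and pass cysteine precursors to neurons. Several of these genes are textbook targets of the transcription factor NRF2, which binds antioxidant response elements and whose destruction uses a cullin ubiquitin ligase that is activated by neddylation, while Slc7a11 is also a target of ATF4.

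Motif sequences in 2 of the 10 promoters are shown because these are the known regulatory letters of this gene group. Windows from 250 bases before to 50 bases after the start of the Ensembl canonical transcript (GENCODE M39, GRCm39) were searched on both strands for the antioxidant response core TGACNNNGC, its variant TGAGNNNGC and the composite ATF4 and C/EBP motif TGATGNAA. The sequences are written on the strand of the gene, with the matched letters in capitals.
Gclm, antioxidant response core, 54 bases upstream, chr3:122039066-122039086, plus strand: ccgggcGCACCGTCAactctc
Slc7a11, antioxidant response variant, 96 bases upstream, chr3:50398145-50398165, minus strand: gttggcGCTTTCTCAagctgg
Slc7a11, ATF4 and C/EBP composite, 65 bases upstream, chr3:50398115-50398134, minus strand: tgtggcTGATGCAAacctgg
Slc7a11, ATF4 and C/EBP composite, 46 bases upstream, chr3:50398096-50398115, minus strand: gagaatTTGCATCAtcatgc
The windows of the other 8 genes held none of the searched letters. Of 21770 promoter windows of protein-coding genes, 12.5% held the core, 17.1% the variant and 3.85% the composite. The core or its variant was present in 27.3%, so matches in 2 of 10 windows do not set this group apart. A match is a description of the letters in this window and was not tested as a binding site.

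Depth and the checks of the libraries come first. Following Methods, the libraries CRE1-3 and CRE3-3 were left out, which leaves 10 CRE libraries with 8923280 to 13345552 assigned counts and 11 RFP libraries with 7635735 to 17112815. Nedd8, the targeted gene, is given in CPM, the count relative to the total of the library after TMM scaling. CRE libraries had 11.4 ± 3.68 (SD, n = 10) CPM, RFP libraries had 60.6 ± 10.0 (SD, n = 11), and the groups did not overlap. Besides the left-out pair, of which CRE3-3 has 1546796 counts, RFP2-4 and RFP3-2 stand apart, the first with 3.44% of its counts on mitochondrial genes against 6.997% to 11.1% in the 19 other libraries and the second with 24.2% on an rRNA gene against 0.856% to 4.06%. The rank correlation of a library's deviation with GC content was 0.54 in RFP2-4, against -0.247 to 0.224 in the 19 other libraries. In CRE1-3 and CRE3-3 it was 0.77 and 0.61. Neuron markers, 8 in the list, summed to 3380 to 5717 CPM in CRE and 5381 to 7093 in RFP libraries, with 5 lower and 0 higher. Among 4 markers of GABA neurons 2 were lower, and the sum spanned 863 to 1550 CPM in CRE and 962 to 2052 in RFP libraries. Of 8 astrocyte markers, 2 were higher and 3 lower, and they summed to 1027 to 3857 CPM in CRE and 1671 to 5511 in RFP libraries. For the oligodendrocyte lineage, 5 of 8 markers were lower, with 425 to 1009 CPM in CRE and 584 to 1867 in RFP libraries. Microglia markers summed to 7.70 CPM at most in these libraries, with 1 of 2 tested higher, and those of endothelial and mesenchymal cells summed to 12.97 to 325 CPM in CRE and 16.9 to 113 in RFP libraries, with 1 of 5 tested higher. Erythrocyte markers reached 1.59 CPM at most and Hba-a1 had no count. The part of these marker shifts in the results was not tested, and in bulk RNA fewer cells of a type and less RNA per cell cannot be told apart.

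CRE libraries held more RNA of most genes of the set than RFP libraries. At an adjusted p under 0.05, 8 of the 10 genes were higher in CRE and 0 were lower, also at an unadjusted p and with DESeq2, while Gpx4 and Ggt7 did not pass. Over all 14482 genes tested, 20.2% passed this threshold upward and 17.8% downward, 2920 and 2572 genes, and after correction for GC content in every library the split was 2449 and 3446. The median log2 fold change of the 10 genes was 1.09, against 0.02 for all genes tested. For 5 genes, Gclc, Gclm, Gsr, Slc3a2 and Gpx1, every CRE library lay above every RFP library, which 3.07% of all tested genes did. Because the set was chosen on this contrast, nothing is read from these counts. With all 23 libraries, with the 21 libraries of the supplementary count table and without the 4 libraries that stand apart, 8 genes were higher each time, and with counts summed per culture, 3 sums per group, 7 were.

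**Figure D1:**
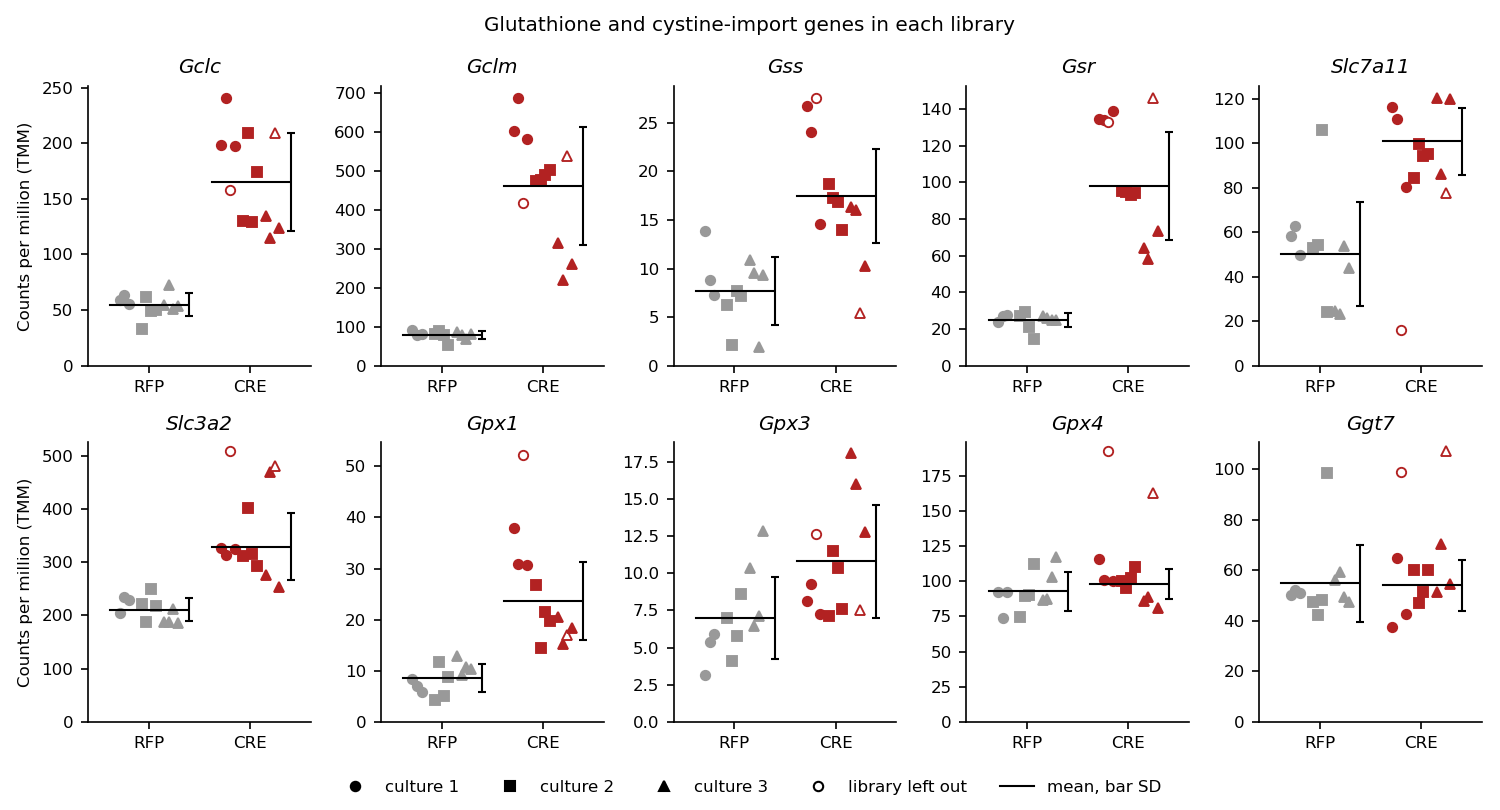
Each panel plots 1 gene in CPM, with a point per library, marker shape for the culture number, open markers for the left-out CRE1-3 and CRE3-3, a line at the mean and a bar of 1 SD (11 RFP and 10 CRE libraries). The filled CRE points of Gclc, Gclm, Gsr, Slc3a2 and Gpx1 sit above every RFP point, those of Gss, Slc7a11 and Gpx3 overlap RFP in part, and the filled CRE points of Gpx4 and Ggt7 lie within or near the RFP range, with the open ones at 163 and 193 CPM for Gpx4 and 98.9 and 107.1 CPM for Ggt7.

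Among the synthesis enzymes, the modifier subunit Gclm showed the largest difference of the set. Gclm (ENSMUSG00000028124, chr3:122039126-122065061, plus strand) ranged from 220 to 685 CPM in CRE libraries with a median of 483. In RFP libraries it ranged from 51.8 to 91.7 CPM with a median of 80.6. The lowest CRE library, CRE3-2, was thus above the highest RFP library, and the log2 fold change was 2.55 (SE 0.16), a 5.85-fold difference with a 95% interval of 4.64 to 7.38. Gm17494 on the opposite strand covers 10.9% of the exons of Gclm and had 12 to 60 counts per library. Gm6061 on the same strand covers 6.18% and had 0 counts. Reads of these stretches cannot be assigned with certainty. The catalytic subunit Gclc (ENSMUSG00000032350, chr9:77661797-77701770, plus strand) ranged from 115 to 241 CPM in CRE libraries (median 154) and from 32.7 to 72.2 CPM in RFP libraries (median 54.8). The groups did not overlap, and the log2 fold change was 1.59 (SE 0.13), or 3.02-fold.

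The proportion of the ligase subunits was taken within each library. Per kb of exon, each CRE library held 1.51 to 2.98 Gclm counts for each Gclc count, with a median of 2.26, while RFP libraries held 0.818 to 1.94 with a median of 1.16. This ratio does not depend on the scaling between libraries, and 6 of 10 CRE libraries were above every RFP library. In the left-out CRE1-3 and CRE3-3 it was 2.08 and 2.02. Its absolute level depends on the merged exon lengths, 7956 bases for Gclm and 6266 for Gclc. The canonical transcripts have 6349 and 3446 bases, so which RNA is the more abundant is not read from it.

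Gss (ENSMUSG00000027610, chr2:155405096-155455505, minus strand), which completes the tripeptide, was the lowest of the set per kb of merged exons in both groups. Its merged exons span 6911 bases against 1968 in the canonical transcript, so this rank rests on the length used. Gss ranged from 10.3 to 26.8 CPM in CRE libraries (median 16.6) and from 1.90 to 13.9 CPM in RFP libraries (median 7.74), where RFP2-2 and RFP3-3 held only 21 and 24 counts. All but 1 of the CRE libraries, CRE3-4, were above every RFP library, and the log2 fold change was 1.18 (SE 0.25). Exons of Gss overlap those of Acss2 on the opposite strand over 21.9% of their length, and the strand setting of the counting is not given in the sources used here, so reads of that stretch cannot be assigned with certainty.

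Glutathione reductase, which acts on the oxidised form, was higher in CRE libraries without overlap. Gsr (ENSMUSG00000031584, chr8:34142551-34188192, plus strand) ranged from 58.2 to 139 CPM in CRE libraries with a median of 94.3. The RFP libraries lay between 14.8 and 29.5 CPM, with a median of 25.9. The log2 fold change was 1.98 (SE 0.15), a 3.95-fold difference with a 95% interval of 3.21 to 4.85.

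The 2 chains of the cystine exchanger differed in how clearly the groups parted. Slc3a2 (ENSMUSG00000010095, chr19:8684245-8701108, minus strand), the heavy chain it shares with other amino acid carriers, ranged from 253 to 469 CPM in CRE and from 187 to 249 CPM in RFP libraries, with medians of 314 and 212. No libraries overlapped, although the log2 fold change was only 0.64 (SE 0.09). Snhg1 on the opposite strand covers 15.9% of the exons of Slc3a2, so reads of that stretch cannot be assigned with certainty. Snhg1 had 106 to 715 counts per library and a log2 fold change of 0.71, in the same direction.

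Slc7a11 (ENSMUSG00000027737, chr3:49846975-50398070, minus strand), the light chain that carries cystine, ranged from 80.4 to 120 CPM in CRE libraries with a median of 97.4. In RFP libraries it ranged from 23.2 to 106 CPM with a median of 52.9. The highest RFP library, RFP2-3, was above 6 of the 10 CRE libraries, while RFP2-4, RFP3-1 and RFP3-2 lay at 23.2 to 24.5 CPM. The log2 fold change was 1.00 (SE 0.20), and 1.22 and 0.68 without culture 2 and culture 3. The left-out CRE1-3 held 16.1 CPM of Slc7a11, below every other library, and CRE3-3 held 77.8. Per kb, Slc7a11 stood at 0.0552 to 0.142 counts for each Slc3a2 count in CRE and 0.0336 to 0.128 in RFP libraries, and these ranges overlapped.

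The 3 peroxidases of the set are selenoproteins, and they differed from each other in the comparison. Gpx1 (ENSMUSG00000063856, chr9:108216102-108217546, plus strand), the abundant cytosolic enzyme, ranged from 14.4 to 37.9 CPM in CRE libraries (median 20.98) and from 4.25 to 12.8 CPM in RFP libraries (median 8.81). The groups did not overlap, with 149 to 500 counts per CRE library and 51 to 137 per RFP library, and the log2 fold change was 1.47 (SE 0.20). Of the exons of Gpx1, 85.3% are overlapped by Gm57050 on the opposite strand, which had 0 to 9 counts per library. With the strand setting not given, reads of that stretch cannot be assigned with certainty, and the level of Gpx1 per kb is uncertain.

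Gpx3 (ENSMUSG00000018339, chr11:54793279-54802424, plus strand), the secreted enzyme, was low in both groups, at 7.14 to 18.1 CPM in CRE and 3.13 to 12.8 CPM in RFP libraries, with medians of 9.81 and 6.47. Only CRE3-1 and CRE3-2 were above every RFP library. The log2 fold change was 0.63 (SE 0.23), and its call was lost with counts summed per culture and when any of the 3 cultures was left out. Of the exons of Gpx3, 85.0% are overlapped by Tnip1 on the opposite strand, which had 50 to 260 counts per library and a log2 fold change of 0.50, so the reads of these genes cannot be told apart with certainty.

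Gpx4 (ENSMUSG00000075706, chr10:79883000-79892273, plus strand), which reduces lipid peroxides and protects cells from ferroptosis, ranged from 81.4 to 116 CPM in CRE and from 73.9 to 117 CPM in RFP libraries, with medians of 100.2 and 90.3. The ranges covered each other nearly fully. The log2 fold change was 0.08 (SE 0.09), with a 95% interval from -0.10 to 0.26. Of the 50-base stretches of the canonical transcript of Gpx4, 69.0% occur in transcripts of 4 other annotated genes. Gm63662 and the pseudogene Gpx4-ps2 share the most, so the counts of Gpx4 may be incomplete. Per kb, Gpx1 stood at 0.180 to 0.390 counts for each Gpx4 count in CRE and at 0.0676 to 0.176 in RFP libraries, with no overlap. In the left-out CRE1-3 and CRE3-3 this ratio was 0.323 and 0.125, the latter within the RFP range.

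Ggt7 (ENSMUSG00000027603, chr2:155331452-155360157, minus strand), a member of the gamma-glutamyl transferase family that is expressed in brain, ranged from 37.4 to 70.4 CPM in CRE and from 42.2 to 98.6 CPM in RFP libraries, with medians of 53.1 and 50.05. The highest RFP value belonged to RFP2-4, and the next was 59.5 CPM in RFP3-2. The log2 fold change was -0.02 (SE 0.13), with a 95% interval from -0.28 to 0.24.

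Length-scaled levels placed the genes in a rough order in RFP libraries. The lengths were those of exons merged over all annotated transcripts, and the order with canonical transcript lengths was not computed. Gpx4 came first with 53.8 ± 7.96 (SD, n = 11) CPM per kb of exon, then Slc3a2 with 45.2 ± 4.66, and their ranges overlapped. A gap followed, since the lowest Slc3a2 library (40.0) was far above the highest library of Gclm (11.5), which had a mean of 9.89 ± 1.37 CPM per kb. Below it came Ggt7 (9.17), Gclc (8.75), Gpx1 (5.93), Gsr (3.59), Slc7a11 (3.24), Gpx3 (2.28) and Gss (1.12), and each of these overlapped its neighbour in range. In CRE libraries Slc3a2 led with 70.4 ± 13.5 (SD, n = 10) CPM per kb, Gclm came next with 57.9 ± 19.0 and Gpx4 followed with 57.0 ± 6.19. These 3 overlapped their neighbours, and Gclc was next at 26.4 CPM per kb without overlap with Gpx4.

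**Figure D2:**
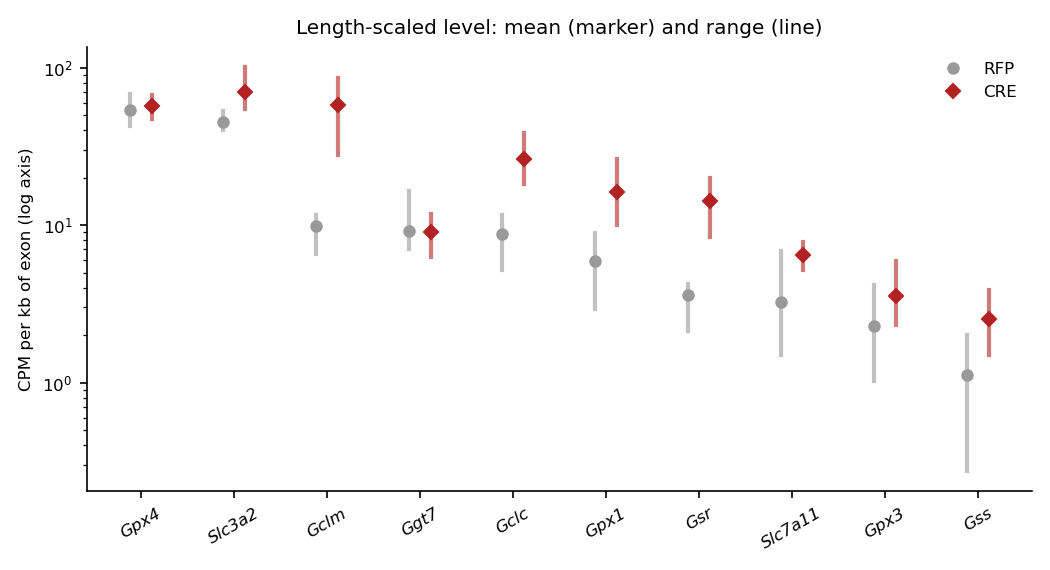
CPM per kb of exon on a log axis for each gene, ordered by its mean in RFP libraries, with the mean as a marker and the range over 11 RFP or 10 CRE libraries as a line. The markers of Gclm lie at 9.89 in RFP and 57.9 in CRE libraries, while those of Ggt7 lie at 9.17 and 9.05.

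The cultures were then compared, a contrast other than the CRE to RFP difference known when the genes were chosen. Between the 3 RFP cultures, 0 of the 10 genes differed in the edgeR test, with adjusted p-values from 0.429 to 0.893, and 0 had an unadjusted p under 0.05. With DESeq2 0 passed as well, and Gpx3 alone had an unadjusted p under 0.05. Of 12114 genes tested within RFP, 2.03% passed.

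The CRE to RFP difference of Gclm varied between culture numbers. In the test of condition by culture, Gclm passed with an adjusted p of 0.0164 from edgeR's quasi-likelihood test, as 1 of the 10 genes, and 0.311% of all genes passed. This test uses the CRE and RFP values known when the set was chosen, so nothing is read from that count. The log2 fold change of Gclm was 2.89 (SE 0.17) in culture 1, 2.69 (SE 0.14) in culture 2 and 1.76 (SE 0.15) in culture 3. In CPM, Gclm stood at 580.0, 600.4 and 685 in the 3 CRE libraries of culture 1, at 474 to 501 in the 4 of culture 2, and at 220, 262 and 313 in the 3 of culture 3. The RFP libraries lay at 79.1 to 91.7, 51.8 to 89.9 and 68.9 to 85.2 CPM in the same order, so the cultures parted among CRE libraries. The call was made only with both CRE1-3 and CRE3-3 left out: the adjusted p was 0.451 with CRE1-3 alone kept, 0.445 with CRE3-3 alone kept, 0.966 with all 23 libraries and 0.861 in the 21 libraries of the supplementary count table. Over all genes, 0 or 1 passed in these 4 sets, against 45. The fits that keep 1 of these libraries were added after seeing the data. It was 0.0106 without the 4 libraries that stand apart, 0.0156 with RLE size factors, 0.000146 without the filter and 0.000225 with DESeq2. The same number in CRE and RFP titles was not shown to mark a shared source, so a pair of cultures here may share only a number.

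For the other 9 genes the edgeR test of condition by culture did not pass. Gsr came closest, with log2 fold changes of 2.38, 2.03 and 1.34 (SE 0.19, 0.16 and 0.17) and an adjusted p of 0.123, and it passed with DESeq2 (adjusted p = 0.0161). Gpx1 had 2.23, 1.47 and 0.74 (SE 0.32, 0.27 and 0.29) with an adjusted p of 0.270. Slc7a11 ran in the other order, with 0.85, 0.65 and 1.57 (SE 0.37, 0.32 and 0.34), at an adjusted p of 0.669, and 0.0397 without the filter. For Gpx4 the values were 0.30, 0.15 and -0.21, and for Ggt7 they were -0.08, -0.11 and 0.15, none with an adjusted p under 0.05. Each of the 8 genes counted as higher had a positive value in each culture.

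A comparison of the CRE cultures alone was chosen after the counts had been seen. Over the 10 CRE libraries, Gclm (adjusted p = 0.00266) and Gsr (adjusted p = 0.00336, edgeR) differed between cultures, while 0.652% of all 12584 genes did. The CRE values were known when the set was chosen, so nothing is read from these calls against that share. Gsr stood at 134 to 139 CPM in culture 1, 93.0 to 95.4 in culture 2 and 58.2 to 73.5 in culture 3. Among these 10 libraries the cultures did not overlap. The left-out CRE1-3 of culture 1 held 133 CPM of Gsr, and CRE3-3 of culture 3 held 146 CPM, above culture 1. With the 12 CRE libraries, 0 of 11129 genes passed in edgeR and 392 had an unadjusted p under 0.05, with Gpx1 alone among the 10 genes.

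**Figure D3:**
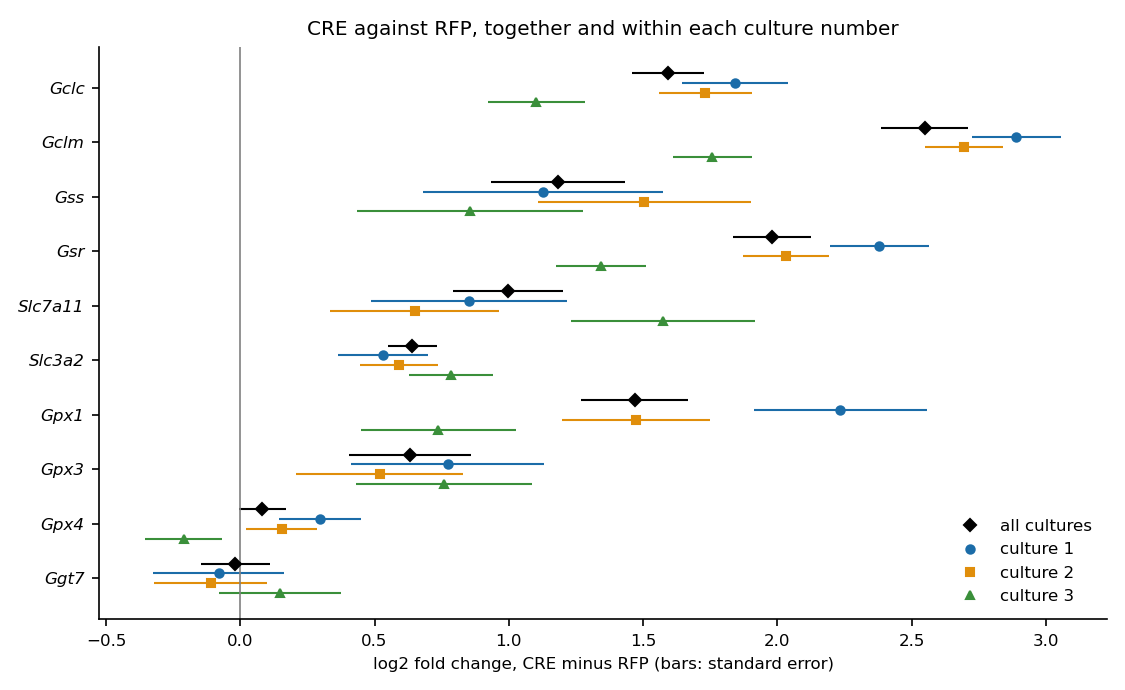
Log2 fold change of CRE against RFP with its standard error for each gene, over all cultures (black diamonds, 10 CRE and 11 RFP libraries) and within each culture number (coloured markers, 3 or 4 libraries per group). Gclm falls from 2.89 in culture 1 to 1.76 in culture 3, and Gpx4 and Ggt7 lie on both sides of 0.

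Beyond the 10 genes, 65 further genes of cysteine and glutathione metabolism in 6 lists were examined, of which 54 were tested. Among them 14 were higher and 12 lower in CRE libraries, or 25.9% and 22.2%, against the 20.2% and 17.8% of all genes given above, and their median log2 fold change was 0.14. Both directions occurred in 5 of the 6 lists.

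In the gamma-glutamyl cycle and glutathione breakdown, 4 of 7 tested genes were higher and 1 lower, with a median log2 fold change of 0.55. Ggt5, a gamma-glutamyl transferase, stood at 0.61 to 7.55 CPM in CRE and 0 to 1.82 in RFP libraries, with a log2 fold change of 2.43 (SE 0.66, adjusted p = 0.00407) from very low counts, and the call was lost with counts summed per culture. Chac1, which cleaves glutathione and is a target of ATF4, had a log2 fold change of 0.80 (SE 0.25, adjusted p = 0.0127), with 17.9 to 82.6 CPM in CRE and 12.7 to 33.6 in RFP libraries. It lost its call without culture 1 and without culture 2. Oplah, the 5-oxoprolinase that returns glutamate to the cycle, had 0.60 (SE 0.18), which lost its call in 4 of 17 settings: with counts summed per culture, without culture 1, without culture 3 and without the CRE libraries of culture 1. Lap3, an aminopeptidase, had 0.55 (SE 0.13), a call lost with all 23 libraries. Ggct, the gamma-glutamylcyclotransferase, was the gene that fell, at -0.80 (SE 0.23, adjusted p = 0.00608), and lost its call without culture 2. Ggt1, Ggt6, Anpep and the 3 dipeptidases Dpep1, Dpep2 and Dpep3 were under the filter.

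Of the 5 light chains that pair with Slc3a2 besides Slc7a11, 0 were higher and 1 was lower, with a median of -0.28. Slc7a10, a carrier of small neutral amino acids including cysteine, stood at 0 to 1.82 CPM in CRE and 0.93 to 5.36 in RFP libraries, a log2 fold change of -1.52 (SE 0.48, adjusted p = 0.0123). This call was lost with all 23 libraries, with counts summed per culture and without culture 2.

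The other carriers of cysteine, glutamate or glutathione split, with 4 of 8 tested higher and 2 lower and a median of 0.15. Slc1a4, a neutral amino acid exchanger that also carries cysteine, was the clearest, at 327 to 616 CPM in CRE and 172 to 277 in RFP libraries with no overlap, a log2 fold change of 1.06 (SE 0.11, adjusted p = 1.02e-08). Slc1a5, of the same family, had 0.81 (SE 0.29), a call lost in 8 of the settings, among them without the 4 libraries that stand apart, and Slc25a39, the mitochondrial glutathione carrier, had 0.38 (SE 0.09), a call lost with counts summed per culture. Arl6ip5, which restrains the transport activity of the Slc1a1 protein, had 0.23 (SE 0.09), and this call was lost in 13 of 17 settings, among them without RFP3-2. Slc1a2, the main glutamate transporter of astrocytes, was lower, at -0.64 (SE 0.15), a call lost without culture 2. Slc1a1, the neuronal carrier of glutamate and cysteine, was lower at -0.30 (SE 0.09), a call lost with counts summed per culture, without culture 1 and without culture 3. The sum of the astrocyte markers is given above, and its part in the value of Slc1a2 was not tested.

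In the methionine cycle, transsulfuration and cysteine breakdown, 2 of 15 genes were higher and 5 lower, with a median of 0.27, positive while more genes were called lower. Sqor, which oxidises sulfide in mitochondria, stood at 4.19 to 13.4 CPM in CRE and 0.24 to 2.02 in RFP libraries, the largest difference of the 6 lists at 3.09 (SE 0.33, adjusted p = 1.74e-08). The left-out CRE1-3 held 13.35 CPM of Sqor, and CRE3-3, the library with the fewest counts, held 0. Mat2b, a subunit of methionine adenosyltransferase, had 0.29 (SE 0.10), a call lost in 9 of 17 settings, among them all 23 libraries, the supplementary set, GC correction and leaving out the CRE libraries of culture 1. Cbs, the entry enzyme of transsulfuration, was lower, at 4.72 to 14.2 CPM in CRE and 10.3 to 41.6 in RFP libraries with a log2 fold change of -1.62 (SE 0.24, adjusted p = 2.99e-06). Cdo1, the dioxygenase that commits cysteine to breakdown, had -1.02 (SE 0.16, adjusted p = 1.24e-05), and every CRE library was below every RFP library. Mtrr, the reductase that keeps methionine synthase active, had -0.61 (SE 0.19), a call lost without culture 1 and with culture and library number as a block. Mpst, a sulfurtransferase, had -0.46 (SE 0.16), a call lost in 5 settings, among them without RFP2-4 and with all 23 libraries, where its value was 0.0484.

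Of the other glutathione peroxidases and glutathione users, 3 of 9 tested genes were higher and 1 lower, with a median of 0.22. Esd, the esterase that releases glutathione from S-formylglutathione, stood at 35.6 to 112 CPM in CRE and 7.67 to 20.7 in RFP libraries, with no overlap and a log2 fold change of 2.40 (SE 0.19, adjusted p = 1.69e-10). The left-out CRE1-3 and CRE3-3 held 8.991 and 8.185 CPM of Esd, within the RFP range. Gpx8 and Gpx7, peroxidases of the endoplasmic reticulum, had 1.62 (SE 0.17, adjusted p = 1.44e-08) and 1.57 (SE 0.34, adjusted p = 0.00049). In the left-out CRE1-3 and CRE3-3, Gpx8 stood at 6.13 and 1.36 CPM, against 5.81 to 20.6 in RFP libraries. Gpx7 stood at 9.26 and 4.09 CPM there, above the RFP maximum of 3.09. Glrx2, the mitochondrial glutaredoxin, was lower at -0.30 (SE 0.08), a call lost without culture 1. In selenoprotein synthesis, which the 3 peroxidases of the set depend on, 1 of 10 genes was higher and 2 lower, with a median of -0.04. Sepsecs, which makes the selenocysteine of the tRNA, had 0.45 (SE 0.15), a call lost in 7 of 17 settings, among them all 23 libraries, the supplementary set, GC correction and leaving out the CRE libraries of culture 1. Eefsec, the elongation factor for selenocysteine, had -0.86 (SE 0.19), a call lost with all 23 libraries, and Sephs1, of the selenophosphate synthetase family, had -0.55 (SE 0.09).

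**Figure D4:**
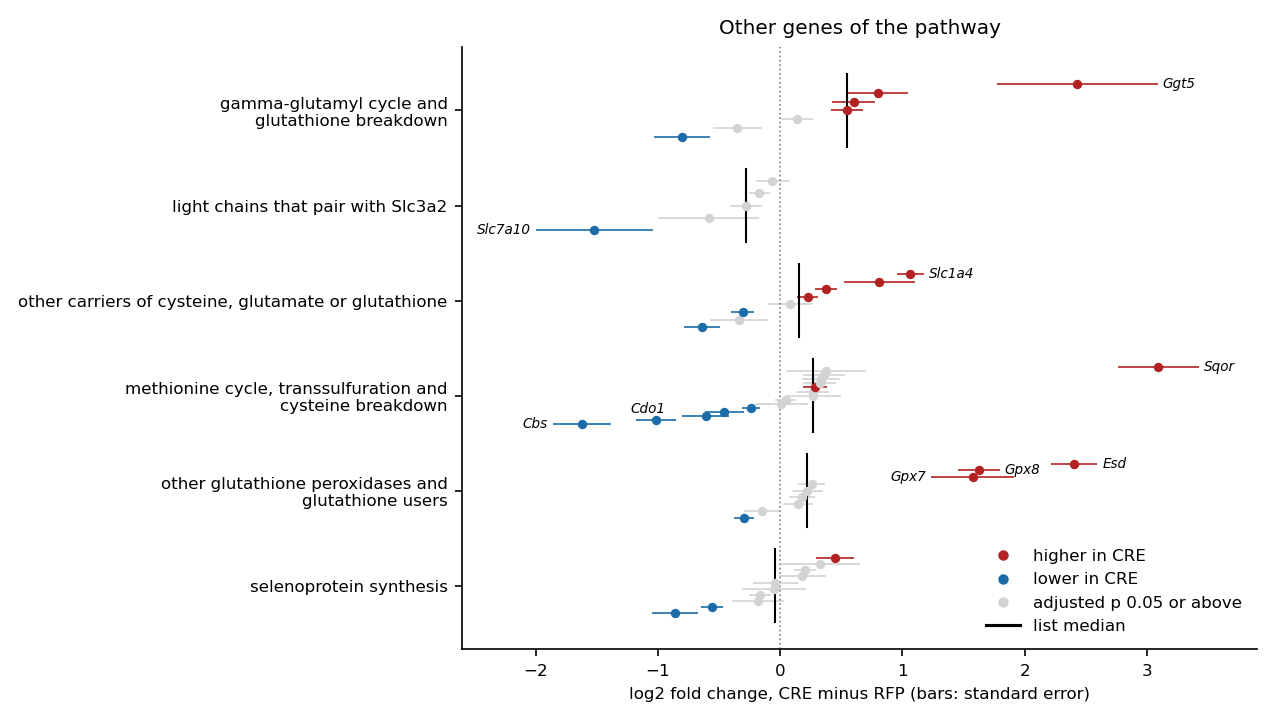
Log2 fold change of CRE against RFP with its standard error for the 54 tested genes of the 6 lists, coloured by direction at an adjusted p under 0.05 from edgeR, with a black line at each list's median (10 CRE and 11 RFP libraries). Ggt5, Slc1a4, Sqor, Esd, Gpx7 and Gpx8 lie on the higher side and Cbs, Cdo1 and Slc7a10 on the lower side.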

How the data were processed

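The authors sequenced libraries made with Illumina Stranded mRNA Prep on a NovaSeq6000. The submitters' processing notes name bcl2fastq 2.20.0.422, STAR 2.7.8a and featureCounts 1.5.0-p1, and the build GRCm39, with Ensembl release 110 per Methods. The deposited values are raw counts per gene and library, not normalized, in 23 libraries of 56941 genes, with totals from 1546796 to 17112815. Its strand setting and its rule for multimapping reads are not given in the sources used here. Symbols, exons and promoters came from GENCODE M39 on GRCm39, which named 56323 of the genes.

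CRE1-3 and CRE3-3 were left out, as Methods states for the differential analysis, and the supplementary count table of the study leaves out CRE3-3 and RFP3-2 instead. No libraries of a culture agreed within sampling noise. Counts were compared with edgeR 4.0.16 in R 4.3.3 (filterByExpr, TMM, estimateDisp, robust glmQLFit, glmQLFTest) and p-values adjusted by Benjamini-Hochberg across the tested genes, and the procedure was tested on simulated data. CPM were computed with TMM factors over all 23 libraries and divided by merged exon length for levels per kb. Alternatives were DESeq2 1.42.0, RLE size factors, no filter, other sets of libraries, a block of culture or culture and library number, counts added up within cultures, leaving out each culture and removal of the trend with GC content. Added after seeing the data were the comparison of CRE cultures fits without RFP2-4, RFP3-2 or the CRE libraries of culture 1, and fits of condition by culture with CRE1-3 or CRE3-3 kept. Figures and sums used Python 3.11.15 with pandas 2.3.3, scipy 1.17.1 and matplotlib 3.10.9.

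The 10 genes, the pathway and marker lists and the tests were chosen with earlier results of these data known. Text names the 10 genes, Nedd8, and up to 4 genes per list and direction with the largest log2 fold change past an adjusted p of 0.05. Tnip1, Acss2, Snhg1, Gm57050, Gm17494 and Gm6061 are named for their overlap with a gene of the set. Gpx4-ps2 and Gm63662 are named for the stretches they share with Gpx4, and Hba-a1 for its level. The genes under the filter and the setting-dependent calls were picked after their values were seen.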

Additional observations from a re-analysis of the deposited data

Results flagged for a closer look

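The CRE to RFP difference of Gclm differed between culture numbers 1, 2 and 3 in the test of that difference (adjusted p = 0.0164, edgeR's quasi-likelihood test over all genes), with log2 fold changes of 2.89, 2.69 and 1.76. The adjusted p was 0.966 with all 23 libraries and 0.861 in the 21 libraries of the supplementary count table. Among the 10 CRE libraries, a single library lay far from the others for 2 of the 36 genes checked, a different library for each, and chance flags about 1 group in 20, so 2 is about the number that chance gives. Chac1 stood at 82.6 CPM in CRE3-2, against a median of 27.02. Sepsecs stood at 44.0 CPM in CRE1-2, against a median of 24.7. The RFP group of 11 libraries was not checked in this way.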

How the results depend on the processing

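The log2 fold changes of the 10 genes moved by less than 1 SD between libraries in each of 170 recomputed values over 17 alternative settings, and 8 genes were higher in each setting but those in which Gpx3 lost its call. Their number was 7 with counts summed per culture, and 7 for each culture left out. All levels per kb in RFP libraries, 20 recomputed values, stayed within 1 SD as well. None of these changed the exon length used, so the order of genes per kb was not checked against it. Genes higher in CRE over all genes numbered 4723 without the filter, and genes lower numbered 1692 with all 23 libraries. In the pathway lists, 8 genes were higher with counts summed per culture, and leaving out a culture gave 8 to 16 higher and 7 to 12 lower. Mpst reversed with all 23 libraries, to 0.0484.

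For condition by culture, 0 genes passed in edgeR with all 23 libraries (614 at an unadjusted p under 0.05) and 1 in the 21 libraries of the supplementary count table, with CRE1-3 alone kept and with CRE3-3 alone kept, with 0 of the 10 genes in each of these 4 sets. Without the filter 416 genes passed and with DESeq2 199, each with 2 of the 10. Between RFP cultures 110 genes passed in the 21 libraries of the supplementary count table, 789 without the filter and 590 with DESeq2. Between CRE cultures 0 passed with 12 libraries, 0 of the 10 genes among them. The cause was not tested.

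CRE and RFP libraries with the same culture number had correlations of their deviations of 0.121, 0.178 and 0.0777, and same library numbers from -0.0815 to 0.303, so the numbers were not taken to pair the samples, although each culture correlated best with its own number, a hint from the data and not the design. With culture number as a replicate block, 3046 genes higher in CRE passed, and 8 of the 10 genes. Over all genes, those higher in CRE numbered 2546 with culture and library number as the block, and 2570 with culture number as the block and the GC trend removed. Among the named genes outside the set, the SE was largest for Ggt5 (0.66), Slc7a10 (0.48), Gpx7 (0.34), Sqor (0.33) and Slc1a5 (0.29). Each of these had 8 counts or fewer in its lowest library. Within the set, the SE was largest for Gss (0.25), Gpx3 (0.23), Slc7a11 (0.20) and Gpx1 (0.20).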

Other observations

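The left-out libraries CRE1-3 and CRE3-3 differed from the other CRE libraries in several genes of the set. Gpx4 stood at 193 and 163 CPM in them, above every other library of either group, whose highest was 117 CPM. Ggt7 stood at 98.9 and 107.1 CPM, and among the other libraries RFP2-4 alone came near, at 98.6 CPM. The correlation of these libraries with GC content is given above, and its part in the values of Gpx4 and Ggt7 was not tested. Slc3a2 stood at 509 and 480.2 CPM, above the 469 CPM of the highest CRE library kept. CRE1-3 had the highest Gpx1 of all libraries, at 52.3 CPM, and CRE3-3 had 8 counts of Gss. Gclm stood at 416 and 537 CPM and Gsr at 133 and 146 CPM, so both libraries lay above every RFP library for these 2 genes. CRE3-3, with a culture number of 3, was above the other 3 libraries of that culture for both.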
